A study of Mus musculus with 4 samples.

Results

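The genes described here encode the enzymes that cut, protect and crosslink the extracellular matrix: the matrix metalloproteinases (*Mmp*), their tissue inhibitors (*Timp*), the ADAMTS proteases (*Adamts*), the ADAMTS-like proteins (*Adamtsl*), the lysyl oxidases (*Lox* and *Loxl*) and the collagen lysyl hydroxylases (*Plod*). They were chosen by gene symbol, each family name followed by a number or, for *Lox*, the symbol alone, with 10 or more reads in any of the 4 heart libraries. Of 23337 genes listed, 59 symbols matched and 50 had enough reads: 16 *Mmp*, 4 *Timp*, 17 *Adamts*, 5 *Adamtsl*, 5 *Lox* and *Loxl*, and 3 *Plod* genes. The 9 that did not were *Adamts13*, *Adamts18*, *Mmp10*, *Mmp1a*, *Mmp1b*, *Mmp20*, *Mmp21*, *Mmp7* and *Mmp8*, with 0 to 9 reads per library.

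The libraries came from whole-heart RNA of C57BL6/J mice, in a study of what PIMT, a coactivator-binding RNA methyltransferase encoded by *Tgs1*, does in heart muscle. Control mice were PIMT fl/fl, with loxP sites around exons 3 and 4 of the PIMT gene, aged 2 or 6 months. Mice called csPIMT-/-, studied at both ages too, were PIMT fl/fl mice that also carried Cre recombinase under the α-MyHC promoter, which acts in cardiomyocytes and removes these exons from the late embryonic period on. Each group was 1 library, made from pooled RNA of 5 mice, males and females together, so no difference at a single age has a replicate check. Deletion of PIMT and the presence of Cre cannot be told apart in this design. Most genes described here are known as products of fibroblasts, vessel cells and macrophages, in which this Cre is not active, and in RNA of a whole heart more cells of a type and more RNA per cell cannot be told apart.

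Matrix metalloproteinases are zinc enzymes, secreted or held at the cell surface as inactive precursors, that cleave collagens, proteoglycans and elastin, and TIMPs block them by filling the active site. ADAMTS proteases trim procollagens and cut proteoglycans such as versican, whereas ADAMTS-like proteins share their binding modules but lack the protease part and attach to fibrillin microfibrils. Lysyl hydroxylases modify collagen inside the cell, and lysyl oxidases then crosslink collagen and elastin outside it. In the diseased heart these enzymes take part in the remodelling of the collagen network.

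The sequences given here belong to the 2 genes of the set that the study itself followed by qPCR, and to the start regions of *Mmp3* and the neighbouring genes of the metalloproteinase cluster on chromosome 9. *Mmp3* lies at chr9:7445822-7455975, *Mmp12* at chr9:7344381-7369499, *Mmp13* at chr9:7272514-7283331 and *Mmp27* at chr9:7571396-7581885, all on the plus strand of GRCm38. The *Mmp3* primers lie in exons 4 and 5 of 10, at chr9:7447523-7447545 and chr9:7449795-7449815, and span 192 bases of the transcript. The *Timp1* primers each cross an exon border, between exons 2 and 3 and between exons 4 and 5 of 6, and span 226 bases; *Timp1* lies at chrX:20870166-20874735 on the plus strand, inside *Syn1*. They show which part of each RNA the qPCR assay of the study reads.
Mmp3 forward: acatggagactttgtcccttttg
Mmp3 reverse: ttggctgagtggtagagtccc
Timp1 forward: gcaactcggacctggtcataa
Timp1 reverse: cggcccgtgatgagaaact

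RefSeq promoter sequences (GRCm38.p6, 250 bases before to 50 after a start) were found for 30 of the 50 genes, with 32 starts, and none for *Mmp9*. The letters TGANTCA, the AP-1 type site long known from metalloproteinase promoters, were searched on both strands and stood in 3 of the 32 (9.38%), against 7.81% of all 32851 promoters. The 3 were *Mmp3*, *Mmp12* and *Mmp13*. TATAAA stood in 6 of 32 (18.8%), against 13.6% of all promoters. The 120 bases before the start are given for these 3 genes, at chr9:7445702-7445821, chr9:7347254-7347373 and chr9:7272394-7272513, and for *Timp1*, at chrX:20870046-20870165, all on the plus strand, with both motifs in capitals. They are shown because *Mmp3* and *Timp1* were far higher in both csPIMT-/- libraries while *Mmp12* and *Mmp13* were not.
Mmp3: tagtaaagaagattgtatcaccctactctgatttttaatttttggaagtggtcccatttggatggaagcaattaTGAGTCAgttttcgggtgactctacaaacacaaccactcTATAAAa
Mmp12: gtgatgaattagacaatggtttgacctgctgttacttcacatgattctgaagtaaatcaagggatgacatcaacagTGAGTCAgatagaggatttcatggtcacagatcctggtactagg
Mmp13: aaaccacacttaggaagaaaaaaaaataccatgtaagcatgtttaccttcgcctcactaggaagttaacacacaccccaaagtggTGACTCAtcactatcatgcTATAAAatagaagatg
Timp1: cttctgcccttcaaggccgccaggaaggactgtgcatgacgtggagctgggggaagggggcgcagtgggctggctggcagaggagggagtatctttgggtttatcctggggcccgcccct
The AP-1 type site begins 46 bases before the start in *Mmp3*, 44 in *Mmp12* and 35 in *Mmp13*. For *Mmp12* only a start that carries the site was shown, and it lies inside the gene, which begins at chr9:7344381. These distances depend on the annotated start. In the 300 bases around the *Timp1* start neither motif occurred. Of the 120 bases, G or C made up 35.8% in *Mmp3*, 40.8% in *Mmp12*, 37.5% in *Mmp13* and 65% in *Timp1*.

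All levels are the deposited normalized counts, given in the order control 2 months, control 6 months, csPIMT-/- 2 months and csPIMT-/- 6 months. The libraries held 29823073 to 40705783 reads on genes. *Tgs1*, the deleted gene, stood at 580, 816, 160 and 162 normalized counts. The 2-month libraries differed in marker RNAs of atrium, fat and lung. The atrial genes *Myl7*, *Myl4* and *Sln* and the fat genes *Adipoq*, *Plin1*, *Cfd* and *Ucp1* were lowest in the 2-month control and highest in the 2-month csPIMT-/- library (*Myl7* at 1045, 17299, 42908 and 8084, and *Adipoq* at 5.19, 453, 1830 and 298 normalized counts). The atrial *Nppa* (38182, 70659, 201180 and 320296) and the fat-expressed *Fabp4* (10296, 9937, 3225 and 3308) and *Cidea* (1889, 1015, 2561 and 2600) did not have this order. Summed lung epithelial markers, of which 5 of 7 had no read in the 2-month control, stood at 39.8, 23.7, 1179 and 98.8. In the 2-month csPIMT-/- library most of this sum was *Bpifa1* (979), followed by *Scgb1a1* (139). *Ager*, of the same list, was lowest in that library, at 38.1, 13.2, 9.86 and 80.1. Of the defining cardiomyocyte markers, all 6 were abundant in all libraries, with at least 33108 reads each. For part of the genes, ratios at 2 months are therefore also given over the 6-month control. In *Myl7* and *Adipoq* the 2-month csPIMT-/- library was above that control too, so these ratios do not remove the difference in markers. Whether the pools differed in tissue content, and the part this has in any result, was not tested.

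Members of the set were found on both sides of the control at both ages. A gene was counted as higher or lower where its csPIMT-/- library was more than 2-fold above or below the control of the same age, on the scale of the deposited values, among genes with 10 or more reads in either library. At 2 months 11 of the 47 members compared were higher (23.4%) and 14 were lower (29.8%), against 17.3% and 22.5% of all genes compared. At 6 months 20 of 49 were higher (40.8%) and 7 were lower (14.3%), against 16.9% and 24.9% of all genes. *Mmp12* at 2 months and *Mmp24* and *Mmp25* at 6 months passed the 10-read minimum only through the library where they were high. So did *Adamts16* at 2 months and *Mmp27* at 6 months, through the control. With a minimum of 100 reads, 10 of 44 were higher and 13 lower at 2 months, against 13.9% and 22.4% of all genes. At 6 months these were 18 and 5 of 44, against 14.8% and 24.6%. The median ratio of the members was 1.38 at 2 months and 1.5 at 6 months, beside 0.999 and 1 over all genes. After the trend of the ratios with GC content was subtracted, the median at 2 months was -0.03 on the log2 scale, from 0.47. Then 7 of 47 members were higher and 11 lower, against 15% and 11.6% of all genes with a GC value. At 6 months 14 of 49 were higher and 5 lower, against 14.3% and 13.2%. The median was then 0.40 on the log2 scale, from 0.58.

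**Figure D1:**
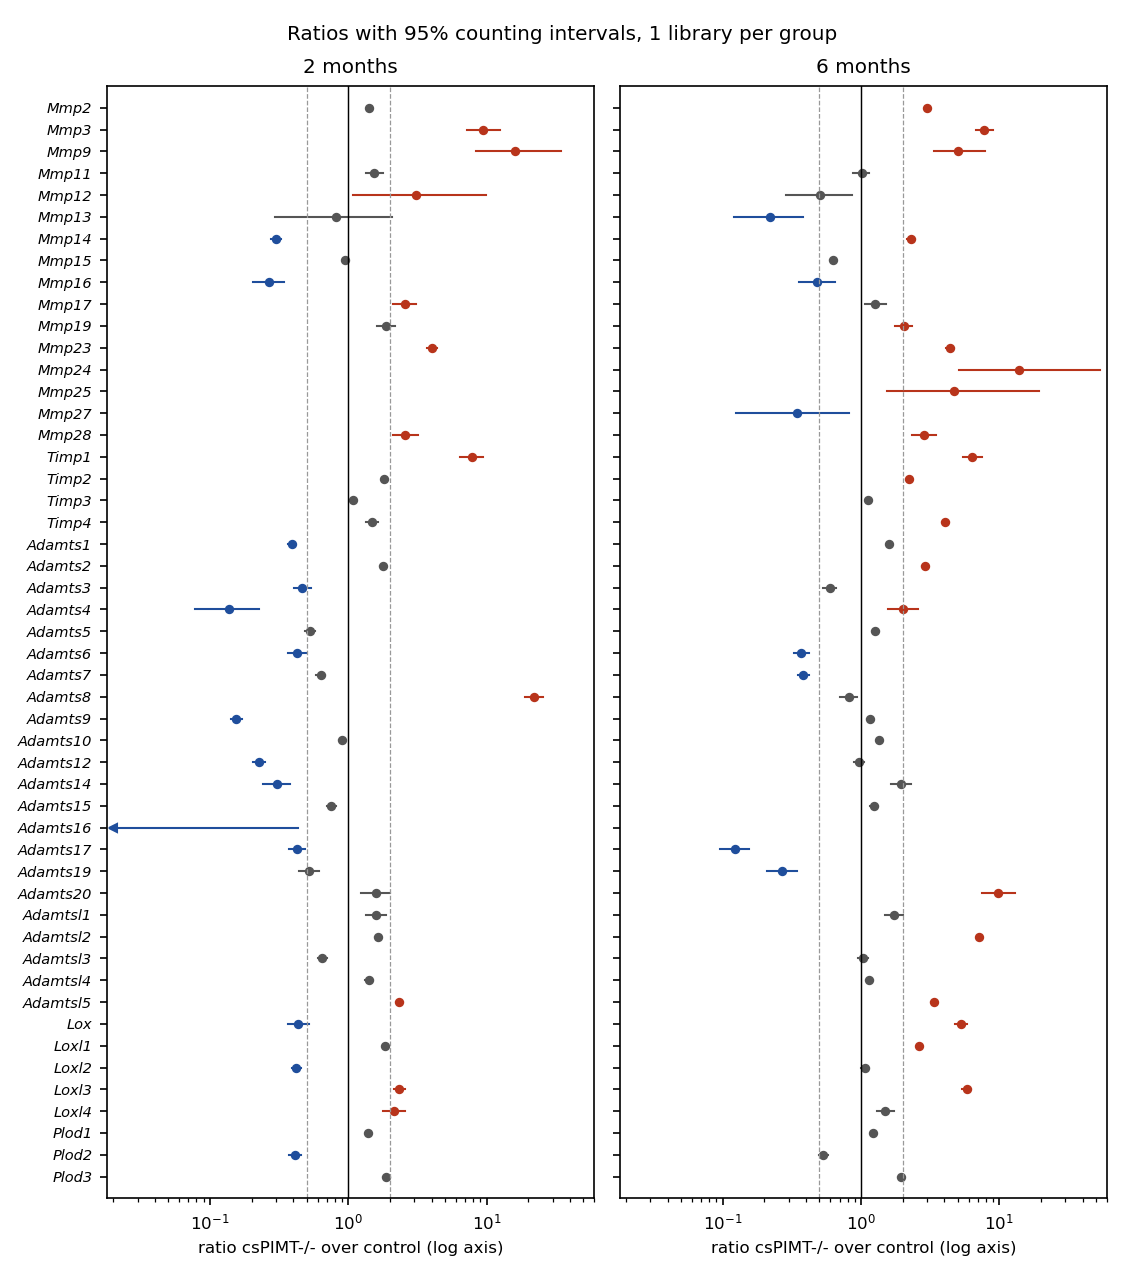
Ratio of the csPIMT-/- library over its age-matched control for each gene at 2 months (left) and 6 months (right), on a log axis, with bars for the 95% counting interval of 1 library per group. Red points lie above a ratio of 2 and blue points below 0.5, marked by the dashed lines. The arrow marks *Adamts16*, with 0 reads in the 2-month csPIMT-/- library, and a missing point means fewer than 10 reads in both libraries. At 2 months 11 genes are red and 14 blue, at 6 months 20 are red and 7 blue.

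At both ages 7 of 46 members were higher (15.2%, against 7.73% of all genes), namely *Mmp3*, *Mmp9*, *Mmp23*, *Mmp28*, *Timp1*, *Loxl3* and *Adamtsl5*. The same 7 were more than 2-fold higher in both csPIMT-/- libraries than in either control, as were 5.36% of all genes. At both ages 3 were lower (6.52%, against 16% of all genes), namely *Mmp16*, *Adamts6* and *Adamts17*, and 0 of the 50 were more than 2-fold lower in both csPIMT-/- libraries than in either control, against 12.5% of all genes. Without regard to size, both csPIMT-/- libraries lay above both controls for 22 of the 50 (44%, against 34.6% of all genes) and below both for 9 (18%, against 35.1%). The ratios of the 2 ages share no library, but those over the other control do.

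The only test the 4 libraries allow is over both ages. In limma, with genotype and age in the model, 14 of 46 members tested rose in csPIMT-/- hearts at an adjusted p of 0.05 (12.1% of all genes did) and 4 fell (17.9% of all genes). Those that rose were *Mmp2*, *Mmp3*, *Mmp9*, *Mmp23*, *Mmp28*, *Timp1*, *Timp2*, *Timp4*, *Adamts2*, *Adamtsl2*, *Adamtsl5*, *Loxl1*, *Loxl3* and *Plod3*, and those that fell were *Adamts6*, *Adamts7*, *Adamts17* and *Plod2*. *Tgs1* fell by 2.08 on the log2 scale (adjusted p = 0.0147), and after subtraction of the GC trend by 0.87 (adjusted p = 0.168). The quasi-likelihood test of edgeR on the recovered reads called 11 and 4, without *Mmp2*, *Timp4* (adjusted p = 0.0562) and *Adamtsl2*. On the deposited scale limma called 11 and 3, without these and *Adamts7*. With no age term it called 13 and 1, with *Mmp19* and without *Timp4* (adjusted p = 0.15) and *Adamtsl2*, and of those that fell only *Adamts6* was called. This test has 1 residual degree of freedom and its spread is mostly borrowed from other genes. Without the mean trend of the variance limma called 0 members in either direction. At an unadjusted p of 0.05, 12 of 46 members were then higher and 7 lower, beside 2547 and 3387 of 14935 genes. With the GC trend subtracted limma also called 0 members. At an unadjusted p of 0.05, 12 and 5 of 46 then passed, beside 1834 and 1655 of 13552 genes.

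**Figure D2:**
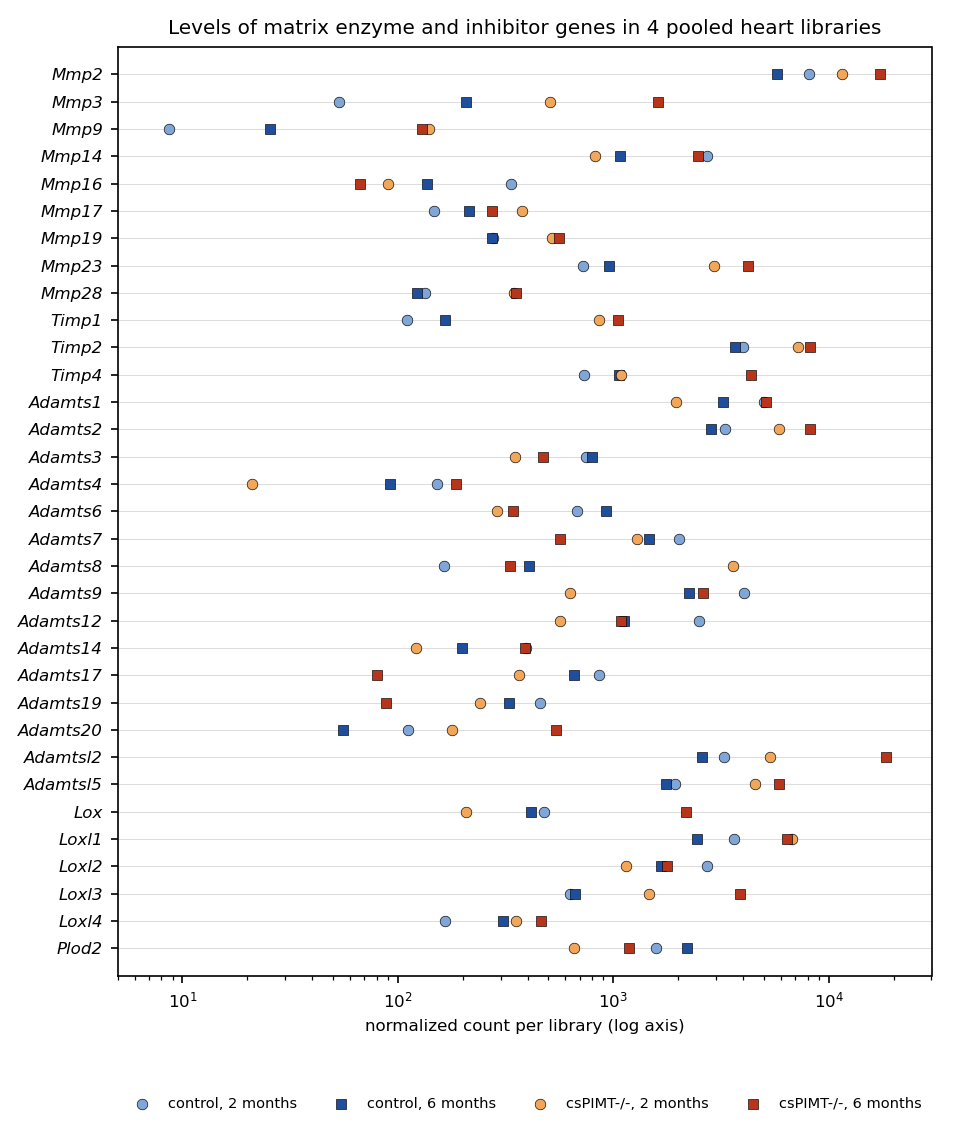
Normalized count of 33 genes in each of the 4 libraries on a log axis, for genes with 100 or more reads in any library that differed by more than 2-fold at 2 months, at 6 months or between the controls. Blue marks are controls and orange and red marks csPIMT-/- hearts, circles are 2 months and squares 6 months. The marks of *Mmp3*, *Mmp23* and *Timp1* separate by genotype, while the 2-month csPIMT-/- mark stands alone on the right for *Adamts8* and on the left for *Adamts4* and *Adamts9*.

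Among the metalloproteinases, *Mmp3* and *Mmp9* had the highest ratios at 2 months, and *Mmp2* had the highest level per kilobase of exon. *Mmp3* (stromelysin-1, which cleaves proteoglycans and activates other metalloproteinases) stood at 53.6, 207, 508 and 1614 normalized counts. Both csPIMT-/- libraries were above both controls, which themselves differed 3.85-fold. Over the age-matched control the ratio was 9.47 (95% counting interval 7.24 to 12.6) at 2 months and 7.81 (6.80 to 8.99) at 6 months. Over the control of the other age it was 2.46 (2.09 to 2.90) at 2 months and 30.1 (23.3 to 39.4) at 6 months. The limma difference was 3.10 on the log2 scale (SE 0.32, adjusted p = 0.0122).

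*Mmp9* (gelatinase B, known from neutrophils and macrophages) stood far lower, at 8.65, 25.5, 139 and 129 normalized counts, from 10, 29, 113 and 124 reads. The csPIMT-/- libraries lay close to each other and above both controls. Its ratio was 16.1 (8.44 to 34.5) at 2 months, or 5.46 over the 6-month control, and 5.06 (3.35 to 7.86) at 6 months. The limma difference was 3.09 (SE 0.64, adjusted p = 0.0240). Summed neutrophil markers stood at 127, 72.1, 54.2 and 567 normalized counts, with *Elane* at 0 reads in all 4 libraries and *Mpo* at 0 to 2. They were lowest in the 2-month csPIMT-/- library, where 0 of 3 compared were higher and 2 lower, and 5 of 5 were higher at 6 months. Summed macrophage markers stood at 13259, 29062, 34568 and 48547, with 5 of 8 higher at 2 months and 3 of 8 at 6 months. Of all genes compared, 17.3% were higher and 22.5% lower at 2 months, and 16.9% were higher at 6 months. The part of either cell type in the level of *Mmp9* was not tested.

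*Mmp2* (gelatinase A) stood at 8125, 5780, 11556 and 17321 normalized counts. Both csPIMT-/- libraries were above both controls, with ratios of 1.42 (1.38 to 1.46) at 2 months and 3 (2.91 to 3.08) at 6 months, and limma gave a difference of 1.06 (SE 0.30, adjusted p = 0.0496). Per kilobase of exon *Mmp2* was the highest of the 50 genes in every library, at 2410, 1715, 3428 and 5138 normalized counts per kb. *Mmp14* (MT1-MMP, the membrane protease that activates the MMP2 precursor) followed another course, at 2722, 1077, 822 and 2475 normalized counts. It was high in the 2-month control and the 6-month csPIMT-/- library and low in the other two. Its ratio was 0.302 (0.277 to 0.329) at 2 months and 2.30 (2.14 to 2.46) at 6 months, but 0.763 and 0.909 over the control of the other age, so neither call holds with the other control.

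*Mmp23* (a membrane-anchored metalloproteinase without a hemopexin part) stood at 727, 953, 2938 and 4222 normalized counts. The 2 genotypes were well apart, with ratios of 4.04 (3.73 to 4.38) and 4.43 (4.14 to 4.74) and a limma difference of 2.09 (SE 0.22, adjusted p = 0.0122). *Mmp28* (epilysin) stood at 133, 123, 345 and 352 normalized counts, nearly the same at both ages within each genotype. Its ratio was 2.59 at 2 months and 2.86 at 6 months, and with the GC trend subtracted the log2 ratio was 0.67 and 0.79, under 2-fold at both ages. *Mmp19* was close to 2-fold at both ages, at 278, 274, 519 and 557 normalized counts, with an adjusted p of 0.0587 in limma.

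The membrane-bound *Mmp15*, *Mmp16* and *Mmp17* differed from one another. *Mmp15* (MT2-MMP) stood at 9271, 5332, 8782 and 3328 normalized counts, lower at 6 months in both genotypes. Its ratios were 0.947 and 0.624, or 1.65 and 0.359 over the control of the other age. It was the second of the 50 genes per kilobase in the 2-month control and ranked 16 in the 6-month csPIMT-/- library. *Mmp16* (MT3-MMP) stood at 337, 137, 90.0 and 66.6 normalized counts, lowest in the csPIMT-/- libraries, with ratios of 0.267 (0.205 to 0.343) and 0.485 (0.357 to 0.653). Over the 6-month control the 2-month ratio was 0.656, and with the GC trend subtracted the log2 ratios were -0.82 and 0.24. *Mmp17* (MT4-MMP) stood at 147, 215, 376 and 275 normalized counts, more than 2-fold higher at 2 months alone (2.56, or 1.75 over the 6-month control).

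The remaining *Mmp* genes were *Mmp11*, at 329 to 507 normalized counts, and 5 genes with fewer than 100 reads in every library. The cluster neighbours of *Mmp3* did not share its pattern. *Mmp12* (macrophage elastase) had 6, 49, 13 and 21 reads and *Mmp13* (collagenase-3) had 14, 86, 8 and 16. In these and in *Mmp27* (5, 24, 2 and 7 reads) the 6-month control stood highest, with ratios of 0.507, 0.220 and 0.345 at 6 months. All 4 cluster members were higher in the 6-month than in the 2-month control, by 3.85-fold for *Mmp3*, 8.30-fold for *Mmp12*, 6.24-fold for *Mmp13* and 4.88-fold for *Mmp27*. *Mmp24* and *Mmp25* had 1 to 8 reads in 3 libraries and 47 and 16 in the 6-month csPIMT-/- library.

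Of the inhibitors, *Timp1*, *Timp2* and *Timp4* rose in limma, and *Timp3*, the highest of the 4 in counts not corrected for length, differed little from the age-matched control. *Timp1* stood at 110, 166, 856 and 1055 normalized counts. The csPIMT-/- libraries were several-fold above either control, with ratios of 7.79 (6.44 to 9.48) at 2 months and 6.35 (5.43 to 7.45) at 6 months, or 5.15 and 9.60 over the control of the other age. Limma gave a difference of 2.81 (SE 0.31, adjusted p = 0.0122). *Timp2*, which also takes part in the activation of MMP2, stood at 3980, 3679, 7195 and 8152 normalized counts. The genotypes did not overlap, with ratios of 1.81 (1.74 to 1.88) and 2.22 (2.13 to 2.30) and a limma difference of 1.01 (SE 0.21, adjusted p = 0.0234).

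*Timp4*, the inhibitor known for its expression in the heart, stood at 734, 1065, 1087 and 4348 normalized counts. Its 2-month csPIMT-/- library was level with the 6-month control (ratio 1.02), and only the 6-month csPIMT-/- library stood out, with a ratio of 4.08 (3.83 to 4.36). Limma gave a difference of 1.31 (SE 0.37, adjusted p = 0.0498). *Timp3*, the matrix-bound inhibitor, stood at 7599, 10940, 8310 and 12271 normalized counts, higher at 6 months in both genotypes, with ratios of 1.09 and 1.12, or 0.760 and 1.61 over the control of the other age. Of all reads on the 4 inhibitors, which are not corrected for length, *Timp1* made up 0.885%, 1.05%, 4.9% and 4.08% and *Timp3* made up 61.2%, 69%, 47.6% and 47.5%. The share of *Timp4* was 5.91%, 6.72%, 6.23% and 16.8% (16.4 to 17.3% in the last, 95% Clopper-Pearson interval).

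**Figure D3:**
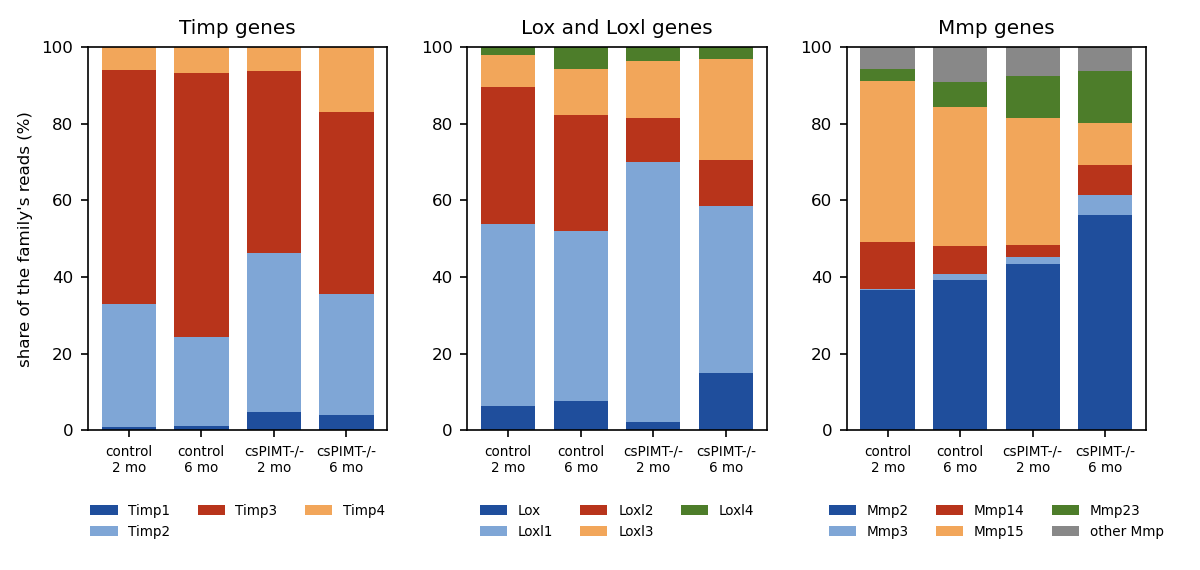
Shares of the reads of each family taken by its genes in the 4 libraries, as stacked bars in percent of the reads of the *Timp*, the *Lox* and *Loxl*, and the *Mmp* genes, not corrected for gene length. The band of *Timp3* narrows from 61.2% and 69% in the controls to 47.6% and 47.5% in csPIMT-/- hearts, and *Mmp2* widens to 56.1% in the 6-month csPIMT-/- library.

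The *Adamts* genes were mostly lower at 2 months. Of 17 compared, 9 were more than 2-fold lower and 1, *Adamts8*, was higher, with a median ratio of 0.468, against 22.5% of all genes lower and 17.3% higher. Over the 6-month control 4 of 16 were more than 2-fold lower, namely *Adamts3*, *Adamts4*, *Adamts6* and *Adamts9*, against 25.1% of all genes, and the median ratio was 0.608. At 6 months 3 of 16 were higher and 4 were lower, with a median ratio of 1.21, against 16.9% and 24.9% of all genes. Their summed level was 27848, 21249, 21111 and 29023 normalized counts, with a ratio of the sums of 0.758 at 2 months and 1.37 at 6 months.

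The procollagen N-proteinases, which trim the ends of fibrillar procollagens, differed in direction. *Adamts2* stood at 3289, 2846, 5858 and 8204 normalized counts, above both controls in both csPIMT-/- libraries, with ratios of 1.78 and 2.88 (2.77 to 3). Limma gave a difference of 1.19 (SE 0.24, adjusted p = 0.0234). *Adamts3* stood at 747, 797, 349 and 472 normalized counts, lower in both csPIMT-/- libraries, with ratios of 0.467 and 0.593 and an adjusted p of 0.0567. *Adamts14* stood at 395, 199, 121 and 388 normalized counts, with ratios of 0.306 and 1.95. In this gene the 2-month control and the 6-month csPIMT-/- library were level.

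Among the proteases that cut versican and aggrecan, *Adamts8* had the highest 2-month ratio of all 50 genes. It stood at 163, 405, 3588 and 330 normalized counts, so 1 library, the 2-month csPIMT-/- pool, was high and the other 3 were low. The ratio was 22.1 (19.0 to 25.7) at 2 months, or 8.87 over the 6-month control, and 0.815 (0.704 to 0.943) at 6 months, and limma gave an adjusted p of 0.18. That library was also highest in summed markers of lung epithelium, given above and mostly *Bpifa1*. The same held for mesothelium (763, 563, 2462 and 655 normalized counts, 4 of 5 higher and 1 lower at 2 months). It held for smooth muscle too (10258, 16711, 26359 and 12859, 3 of 4 higher, against 17.3% of all genes). *Myl7*, of the atrium, was also highest in that library. The part of these tissues in the level of *Adamts8* was not tested. The neighbouring *Adamts15*, at chr9:30899155-30922452 on the minus strand beside *Adamts8* at chr9:30942562-30963838 on the plus strand, stood at 1716, 1627, 1295 and 2037 normalized counts and was lowest in that library.

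*Adamts1*, *Adamts4*, *Adamts5* and *Adamts9* were at their lowest in the same 2-month csPIMT-/- library. *Adamts4* (aggrecanase-1) stood at 152, 92.3, 21 and 186 normalized counts, with a ratio of 0.138 (0.0784 to 0.227) from 176 and 17 reads at 2 months and 2.02 (1.58 to 2.59) at 6 months. *Adamts9* stood at 4048, 2245, 629 and 2605 normalized counts, with ratios of 0.155 (0.141 to 0.170) and 1.16. *Adamts1* stood at 5002, 3216, 1953 and 5123 normalized counts and *Adamts5* (aggrecanase-2) at 2032, 2106, 1074 and 2685. In each of these 4 genes both controls and the 6-month csPIMT-/- library were above the 2-month csPIMT-/- library. Over the 6-month control the 2-month ratios were 0.227 for *Adamts4*, 0.280 for *Adamts9*, 0.607 for *Adamts1* and 0.510 for *Adamts5*. *Adamts20*, a relative of *Adamts9*, stood at 112, 55.4, 178 and 542 normalized counts, with an adjusted p of 0.0748 in limma. Its ratio was 1.58 at 2 months and 9.78 (7.52 to 12.9) at 6 months, or 3.20 and 4.82 over the control of the other age.

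*Adamts17* fell in limma and was more than 2-fold lower at both ages. It stood at 860, 655, 367 and 80.1 normalized counts, and both csPIMT-/- libraries were below both controls, the 6-month library by far. The ratio was 0.427 (0.374 to 0.487) at 2 months, or 0.561 over the 6-month control, and 0.122 (0.0954 to 0.155) at 6 months, and the limma difference was -2.11 (SE 0.49, adjusted p = 0.0309). *Adamts19*, in which mutations cause heart valve disease, had a similar order at 459, 327, 240 and 88.4 normalized counts, with ratios of 0.524 and 0.270, and just missed the threshold in limma, with an adjusted p that rounds to 0.05. *Adamts7*, which cleaves the matrix protein COMP, stood at 2022, 1468, 1283 and 564 normalized counts and fell in limma by 1.01 on the log2 scale (SE 0.28, adjusted p = 0.0459). Its ratios were 0.635 and 0.384, with 0.874 for the first over the 6-month control.

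*Adamts6* stood at 677, 923, 290 and 342 normalized counts, with ratios of 0.428 and 0.371 and a limma difference of -1.31 (SE 0.28, adjusted p = 0.0256). Its exons have a GC content of 43.0%, and with the GC trend subtracted the log2 ratios were -0.26 and -0.27, which ends both calls. *Adamts12*, another COMP-cleaving enzyme, stood at 2489, 1123, 567 and 1086 normalized counts, with a ratio of 0.228 (0.206 to 0.251) at 2 months, 0.505 over the 6-month control and 0.967 at 6 months. The 2-month control stood apart from the other 3 libraries in this gene. *Adamts10*, a fibrillin-associated member, differed little (3672, 3163, 3299 and 4288 normalized counts). *Adamts16* had 14, 2, 0 and 1 reads.

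The *Adamtsl* genes together stood at 9102, 7243, 13954 and 27666 normalized counts, with the 6-month csPIMT-/- library the highest. *Adamtsl2*, a fibrillin-binding protein mutated in geleophysic dysplasia, carried most of that difference. It stood at 3260, 2582, 5334 and 18397 normalized counts, with ratios of 1.64 (1.57 to 1.71) and 7.12 (6.85 to 7.41), and limma gave a difference of 1.78 (SE 0.49, adjusted p = 0.0445). Its share of the family's reads was 35.8%, 35.6%, 38.2% and 66.5%, and per kilobase it ranked 14, 14, 12 and 2 of the 50 genes. *Adamtsl5* stood at 1930, 1759, 4526 and 5902 normalized counts, above 2-fold at both ages (2.34 and 3.36), with a limma difference of 1.5 (SE 0.23, adjusted p = 0.0139). With the GC trend subtracted its log2 ratio at 2 months was 0.53, under 2-fold, and 1.02 at 6 months. *Adamtsl1*, *Adamtsl3* and *Adamtsl4* had ratios of 0.647 to 1.72 at the 2 ages.

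The lysyl oxidases differed in their order at the 2 ages. *Lox*, the founding enzyme, stood at 477, 415, 208 and 2185 normalized counts, lowest in the 2-month and highest in the 6-month csPIMT-/- library. The ratio was 0.437 (0.366 to 0.520) at 2 months and 5.26 (4.76 to 5.83) at 6 months, or 0.502 and 4.58 over the control of the other age, and limma, which averages the ages, gave 0.61 (SE 0.80). With the GC trend subtracted the log2 ratio was -0.35 at 2 months and 3.41 at 6 months. *Loxl3* stood at 628, 667, 1470 and 3872 normalized counts, above both controls at both ages. Its ratio was 2.34 (2.13 to 2.57) at 2 months and 5.81 (5.37 to 6.29) at 6 months, and limma gave a difference of 1.89 (SE 0.35, adjusted p = 0.0195). With the GC trend subtracted its 2-month log2 ratio was 0.80, under 2-fold.

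*Loxl1*, which crosslinks elastin, was the most abundant of the family, at 3635, 2441, 6738 and 6422 normalized counts. It was above both controls at both ages, with ratios of 1.85 and 2.63 and a limma difference of 1.15 (SE 0.22, adjusted p = 0.0209). *Loxl2* stood at 2715, 1657, 1145 and 1774 normalized counts, lowest in the 2-month csPIMT-/- library, with ratios of 0.422 (0.392 to 0.454) and 1.07, and 0.691 for the first over the 6-month control. *Loxl4* stood at 166, 309, 354 and 463 normalized counts, with ratios of 2.13 and 1.5, and 1.15 at 2 months over the 6-month control. Of the family's reads, not corrected for length, *Loxl2* made up 35.6% and 30.2% in the controls and 11.6% and 12.1% in csPIMT-/- hearts, while *Loxl3* went from 8.24% and 12.1% to 14.8% and 26.3%.

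*Plod2*, the hydroxylase of collagen telopeptides, and *Plod3*, which also adds sugars to the hydroxylysines, moved in opposite directions in limma. *Plod2* stood at 1584, 2208, 655 and 1182 normalized counts, below both controls in both csPIMT-/- libraries. Its ratio was 0.413 (0.374 to 0.455) at 2 months and 0.535 (0.499 to 0.574) at 6 months, and limma gave -1.08 (SE 0.23, adjusted p = 0.0264). Its exons have a GC content of 43.0%, and with the GC trend subtracted the log2 ratios were -0.31 and 0.26. *Plod3* stood at 2133, 2166, 4006 and 4226 normalized counts, nearly level within each genotype, with ratios of 1.88 (1.78 to 1.98) and 1.95 (1.86 to 2.05) and a limma difference of 0.95 (SE 0.20, adjusted p = 0.0257). With the GC trend subtracted limma gave -0.01 for *Plod2* (adjusted p = 0.977) and 0.23 for *Plod3* (adjusted p = 0.472), so the opposite directions depend on that setting. *Plod1* differed less, at 8207, 7407, 11353 and 9040 normalized counts.

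The 2 ages disagreed for 12 members. In 10 the whole counting interval lay below 1 at 2 months and above 1 at 6 months (21.7% of 46, against 5.3% of all genes), namely *Adamts1*, *Adamts4*, *Adamts5*, *Adamts9*, *Adamts10*, *Adamts14*, *Adamts15*, *Lox*, *Loxl2* and *Mmp14*. The reverse held for *Adamts8* and *Mmp12* (4.35%, against 4.99% of all genes). With the 2 controls exchanged, only 3 of the 10 still lay below 1 at 2 months and above 1 at 6 months, namely *Adamts5* (0.510 and 1.32), *Adamts15* (0.796 and 1.19) and *Lox* (0.502 and 4.58). With *Mmp12* and *Timp3*, 5 of 46 members then had this pattern (10.9%, against 4.56% of all genes). Neither *Adamts8* nor *Mmp12* kept the reverse pattern, which 2 other members then had (against 5.53% of all genes). The ratios of *Mmp12* turned from 3.09 to 0.372 at 2 months and from 0.507 to 4.21 at 6 months, and that of *Adamts8* at 6 months from 0.815 to 2.03. The differences between ages were not tested, since 4 libraries leave no error for them. Between the control libraries, which differ in age and in mice, 6 of 48 members were higher at 6 months (12.5%, against 9.01% of all genes) and 5 were lower (10.4%, against 4.65%). *Mmp14* was 0.396-fold, *Adamts20* 0.493-fold and *Adamts8* 2.49-fold of the 2-month control in the 6-month control.

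**Figure D4:**
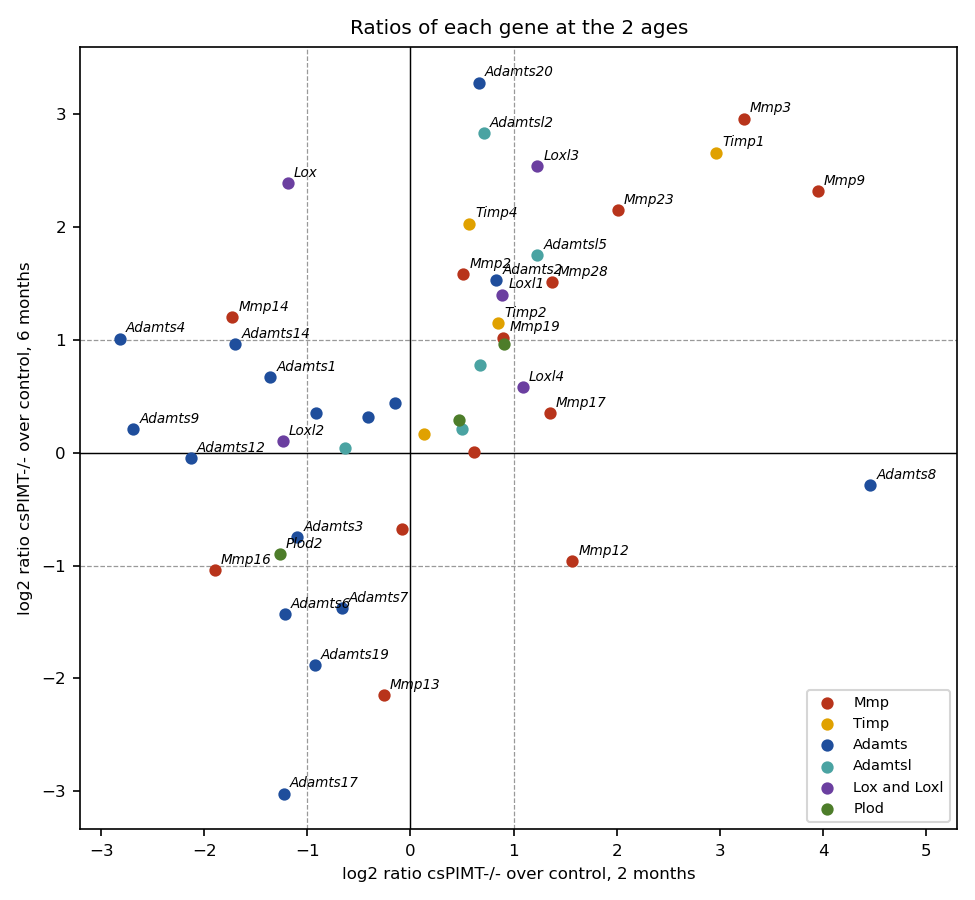
Log2 ratio of csPIMT-/- over the control at 2 months (horizontal) against 6 months (vertical) for the 46 genes compared at both ages, coloured by family, with dashed lines at 2-fold. *Mmp3*, *Mmp9*, *Timp1* and *Mmp23* lie at the upper right, *Adamts17* at the lower centre left. *Lox*, *Mmp14* and several *Adamts* genes lie at the upper left, below the control at 2 months and above it at 6 months, and *Adamts8* lies alone at the far right.

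Other genes of matrix turnover were taken from 8 lists, counted by the same 2-fold rule. Of all genes compared, 17.3% were higher and 22.5% lower at 2 months, and 16.9% and 24.9% at 6 months. These shares apply to every list below, and some of the counts lie near them. Fibrillar collagens, the main substrates of these enzymes, had 1 of 11 higher and 2 lower at 2 months and 4 higher and 1 lower at 6 months. *Col1a1* stood at 37261, 12157, 28350 and 24460 normalized counts, with ratios of 0.761 and 2.01, and *Col1a2* had ratios of 1.02 and 2.08. *Col11a1* stood at 182, 32.5, 128 and 267, with ratios of 0.706 and 8.22. The 2-month control was thus the highest or near the highest library for both type I collagen genes. Collagen processing genes had 3 of 18 higher and 1 lower at 2 months and 6 higher and 1 lower at 6 months. Among them were the transglutaminase *Tgm2* (ratios 2.46 and 5.06), the prolyl hydroxylase *Leprel1* (1.91 and 5.60) and the tolloid-like protease *Tll2* (0.368 and 0.111).

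In the plasminogen system, which activates metalloproteinases, 1 of 7 was higher at 2 months and 4 of 7 at 6 months, with none lower. The receptor *Plaur* had ratios of 0.891 and 3.47 and the inhibitor *Serpine2* of 1.35 and 2.62. Of other protease inhibitors 3 of 5 were higher and 1 lower at 2 months, and 4 of 6 higher and 1 lower at 6 months. *Serpina3n* stood at 458, 1133, 2544 and 23742 normalized counts, with ratios of 5.56 and 21, *A2m* had ratios of 2.70 and 2.78 and *Tfpi2* of 0.444 and 0.398. Membrane-bound ADAM proteases had 1 of 9 higher and 4 lower at 2 months and 2 higher and 2 lower at 6 months, with *Adam8* at 1.19 and 4.54, *Adam17* at 0.387 and 0.261 and *Adam15* at 1.59 and 2.83.

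Cathepsins, the lysosomal proteases, had 2 of 6 higher at either age and none lower, with *Ctsz* at 2.74 and 3.08, *Ctsd* at 2.41 and 2.10 and *Ctsk* at 1.47 and 1.76. Elastic fibre genes, substrates of lysyl oxidases, had 3 of 11 higher and 2 lower at 2 months and 6 higher and none lower at 6 months. *Fbln2* had ratios of 1.96 and 4.38, *Mfap5* of 1.62 and 3.60 and *Mfap4* of 1.55 and 2.61. Proteoglycan substrates had 4 of 8 higher and 1 lower at 2 months and 3 of 7 higher and 1 lower at 6 months, with *Bgn* (biglycan) at 3.35 and 3.21, *Fmod* at 3.82 and 2.80 and *Acan*, the aggrecan gene, at 1.37 and 0.298. Summed fibroblast markers stood at 134833, 79502, 119307 and 126250 normalized counts, of which 0 of 7 were higher and 1 was lower at 2 months and 3 were higher and none lower at 6 months. Their part in the levels of the matrix enzymes was not tested.

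Some of these genes share bases with a gene on the other strand in the annotation. *Adamts7* overlaps exons of *Tbc1d2b*, *Loxl3* of *Htra2*, *Mmp28* of *1700020L24Rik*, *Mmp19* of *Tmem198b*, *Mmp11* of *Chchd10*, *Mmp24* of *BC029722*, *Plod3* of *Znhit1*, *Mmp12* of *Mmp1b*, *Timp3* of *Syn3* and *Timp4* of *Syn2*. The libraries kept strand, but whether the counting used it is not given in the sources used here, and without it reads of the 2 genes cannot be told apart. Levels per kilobase use exon lengths of GENCODE M21 and not those of the annotation used for counting.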

How the data were processed

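RNA-seq libraries of mouse heart were analysed, 1 for each of 4 groups (csPIMT-/- or PIMT fl/fl, 2 or 6 months), each a pool of 5 mice. The authors trimmed adapters, filtered poor and rRNA reads, aligned the rest to mm10 (STAR), obtained gene counts with htseq-count (HTSeq 0.6.1p1 per the labels) and a UCSC annotation, and normalized with DESeq2. Versions of the other tools are not given in the sources used here. The deposited values are normalized counts, a signal per gene, also in the 6-month csPIMT-/- file, whose header names read counts. In each library 100% of values were whole multiples of the smallest (largest deviation 4.89e-09 reads), which gave back whole reads: 39854713 and 40705783 in the controls and 29823073 and 36172093 in csPIMT-/- hearts, at 2 and 6 months.

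Ratios used the deposited scale, with 95% Clopper-Pearson intervals from the reads (counting error only) and 0.5 reads added for log2. Genes of the set were given in full with 100 reads in 1 library and a ratio past 2-fold in any of the 3 comparisons. limma 3.58.1 was fitted to log2(TMM-scaled reads + 1) with genotype, age and a mean trend, on genes with 10 scaled reads in 2 or more libraries and 15 in all, with Benjamini-Hochberg adjustment over 14935 genes. Its p-values test the genotype difference against a spread taken from the departure from additivity of genotype and age, with 1 residual and 4.5 prior degrees of freedom. edgeR 4.0.16 (1619 genes higher and 2508 lower) and DESeq2 1.42.0 (2201 and 2994) were run as alternatives on the recovered reads. GC content was that of the longest transcript in GENCODE M21, with a lowess span of 0.3. Scripts were tested on simulated data. The members and lists were chosen with earlier results of these data known. The labels give no batch or date. Lists of pathway and marker genes were counted by the same 2-fold rule, with up to 3 genes per list named by their 6-month ratio. Some genes that this rule covers are not reported here.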

Additional observations from a re-analysis of the deposited data

Results flagged for a closer look

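Of the members, 12 had a counting interval wholly on one side of 1 at 2 months and wholly on the other side at 6 months. The difference between ages was not tested in any of them, and each rests on 1 library per group. On the log2 scale, the ratio at 6 months minus that at 2 months was 3.83 for *Adamts4*, 2.90 for *Adamts9*, 2.67 for *Adamts14*, 2.03 for *Adamts1*, 1.27 for *Adamts5*, 0.73 for *Adamts15* and 0.59 for *Adamts10*. It was 3.59 for *Lox*, 1.34 for *Loxl2* and 2.93 for *Mmp14*. In *Adamts8* it was -4.75 and in *Mmp12*, which had 6 to 49 reads per library, -2.53. With the 2 controls exchanged, an alternative chosen after seeing the data, only *Adamts5*, *Adamts15* and *Lox* kept the pattern by the same rule. At 2 and 6 months the ratios were then 0.280 and 0.644 for *Adamts9*, 0.691 and 0.653 for *Loxl2*, 0.763 and 0.909 for *Mmp14*, 8.87 and 2.03 for *Adamts8* and 0.372 and 4.21 for *Mmp12*.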

How the results depend on the processing

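Each group is 1 pool, so no replicate could be left out of a test and no spread between pools is known. Leaving a library out of limma leaves no residual degree of freedom. No paired analysis was possible because the labels give no replicate numbers that pair the libraries, but the age term of limma compares the genotypes within an age, and without it 13 members rose and 1 fell. Counts past 2-fold kept within 1.5 times of the main ones under other size factors and read minimums. With the control of the other age 8 of 47 members were lower at 2 months, from 14. Of all genes 25.1% were then lower, from 22.5%, so the members went from above that share to below it. With the same exchange, chosen after seeing the data, 5 of 46 lay below 1 at 2 months and above 1 at 6 months, from 10. Of all genes 4.56% did, from 5.3%. With the GC trend subtracted 7 were higher at 2 months, from 11, and the cause was not tested. Of all genes 15% were then higher, from 17.3%. At 1.5-fold, which admits more genes by construction, 20 were higher at 2 months and 11 lower at 6 months. The share of all genes past 1.5-fold was not computed, so these counts cannot be read as a result about the members.

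The median log2 ratio of the members at 2 months, 0.47, was 0.20 with the other control, 0.05 with both controls summed, 0.03 with no minimum and -0.03 with the GC trend subtracted, where its sign turned. At 6 months, from 0.58, it was 0.69 with the other control, 0.38 with both summed and 0.40 with the GC trend subtracted. With the other control the 6-month log2 ratio of *Mmp14* turned to -0.14, that of *Mmp13* to 0.45 and the 2-month log2 ratio of *Mmp12* to -1.39 (-0.54 with both controls summed), and with the GC trend subtracted that of *Mmp16* turned to 0.24. Calls named in the text that ended with the other control were also those of *Mmp14* (-0.39), *Mmp16* (-0.60), *Adamts1* (-0.72), *Adamts12* (-0.98), *Adamts14* (-0.71), *Adamts17* (-0.83), *Lox* (-0.99), *Loxl2* (-0.53), *Loxl4* (0.20) and *Mmp17* (0.80) at 2 months, and *Adamts4* (0.29), *Adamts6* (-0.98) and *Loxl1* (0.82) at 6 months. The GC correction also ended those of *Loxl4* (0.43) and *Mmp17* (0.73) at 2 months, and of *Mmp2* (0.97), *Mmp14* (0.64), *Timp2* (0.63), *Adamts2* (0.98), *Adamts4* (0.40), *Loxl1* (0.60), *Mmp13* (-0.81) and *Mmp27* (-0.24) at 6 months. Of the other log2 ratios of single genes, 170 moved by more than their counting interval, with no 2-fold call among them changing sign, and 255 did not.

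Over both ages 14 members rose and 4 fell. Without the mean trend, and with the GC trend subtracted, limma called 0 and 0, with smallest adjusted p-values over all genes of 0.067 and 0.1. In DESeq2 16 rose and 9 fell, of 46 members, beside 2201 and 2994 of 14355 genes. edgeR called 11 and 4, and limma on the deposited scale 11 and 3.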
